A study of Mus musculus with 2 samples.

Results

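The cytosolic heat shock chaperones and co-chaperones, 50 listed mouse genes, were examined in mammary epithelial cells of Cuzd1-null mice and of their Cuzd1 heterozygous littermates. The list covers the HSP70, HSP110, HSP90, J-domain, BAG, small heat shock, chaperonin and heat shock factor families. A member was measured through every probe set that carried its symbol and no other. Of the 50 genes, 47 had such a probe set, out of 18193 genes with one on the array. No such probe set was found for Hsf1, Hsp90ab1 and Ptges3, which were not analysed here. The list was chosen by gene family with the signals of these same arrays already known, so the members' ratio between the genotypes is a description and supports nothing by itself.

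The null group is a Cuzd1 knockout and the other group carries 1 intact allele, so no wild-type gland enters the comparison. Heterozygous males had been backcrossed to C57BL/6 females, which left a background that is mostly C57BL/6, and the ages of the animals are not given in the labels. On day 18 of pregnancy the inguinal glands of 5 mice of each genotype were pooled and digested for 2 h in hyaluronidase (100 U/ml) and collagenase (1.5 mg/ml) with shaking at 110 rpm. The washed cells were frozen, no sort or gate is recorded, and 100 ng of RNA of each pool was labelled for 1 array. Each value below is therefore from a single pool per genotype: there is no replicate, and no test or p-value could be had. In such bulk RNA, fewer cells of a type and less RNA per cell cannot be told apart.

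Heat shock chaperones bind unfolded stretches of other proteins and help them fold, refold or reach the proteasome. HSP70 proteins work in cycles of ATP hydrolysis that J-domain proteins start and that HSP110 and BAG proteins end by releasing the nucleotide, while HSP90 takes over many signalling proteins for their last steps of folding. Under heat, proteotoxic or oxidative stress, heat shock factor 1 forms trimers that bind repeats of GAA and its complement near the start of many of these genes and raises their transcription. Some members, such as Hspa8, are made in unstressed cells in large amounts, and others, such as Hspa1a and Hspa1b, are mainly made under stress. The list also holds 4 members that act in mitochondria (Hspa9, Hspd1, Hspe1 and Dnaja3), so its name as cytosolic does not describe all of it.

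The deposited values are MAS5 signals in linear intensity units, scaled so that both arrays have the same trimmed mean. A signal was counted as above the floor when it passed its own array's median, 32.5 units for the null pool and 34.2 units for the heterozygous pool. Genes above the floor on either array, 11893 in all, are called measured. Ratios are log2 of null over heterozygous from the probe set with the highest mean signal, so a negative ratio is a lower signal in the null pool. Over 4722 genes with several probe sets, the robust SD of 1 probe set's log2 ratio was 0.21, which holds no spread between animals. The probe set for Cuzd1 itself read 33.98 units in the null pool and 32.4 units in the heterozygous pool, at or near the floors, so it does not check the labels. The ratios of 3′ to 5′ control probe sets were 1.24 in the null pool and 1.27 in the heterozygous pool for Actb, and 0.794 in both pools for Gapdh. Median log2 ratio over all measured genes was 0.03, with quartiles of -0.18 and 0.23.

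In the null pool 6 members were at least 2-fold lower than in the heterozygous pool: Dnaja4, Hsph1, Hspa1a, Hsp90aa1, Hspb1 and Bag3. None was at least 2-fold higher. All 47 members with a probe set were measured, 46 of them above both floors, so the 6 make up 12.8% of them. Over all measured genes 1.03% were lower by 2-fold or more in the null pool and 1.12% at least 2-fold higher. At a 1.5-fold limit, 13 members (27.7%) were lower and 0 were higher, beside 4.93% of all measured genes lower and 5.83% higher. Since the members were chosen with this contrast known, nothing is read from these shares. The members' median log2 ratio was -0.14 (quartiles -0.68 and 0.08), and the ratios spanned -2.84 to 0.29. As deposited, 28 members lay below 0 and 19 above it (59.6% below it, beside 46.0% of all measured genes). When scaled to hybridization controls, 20 of the 47 members lay below 0, a larger share than the 21.1% of all measured genes. The lower tail of the list is long and its upper tail is short.

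Around the 2-fold limit the ratios were graded. Just inside it were Hspa1a (-1.94), Hsp90aa1 (-1.35), Hspb1 (-1.29) and Bag3 (-1.27). Just outside it were Hspa1b (-0.97), Dnajb1 (-0.93), Dnaja1 (-0.80) and Hspd1 (-0.79). The step across the limit, between Bag3 and Hspa1b, was smaller than the one between Hspa1a and Hsp90aa1.

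**Figure D1:**
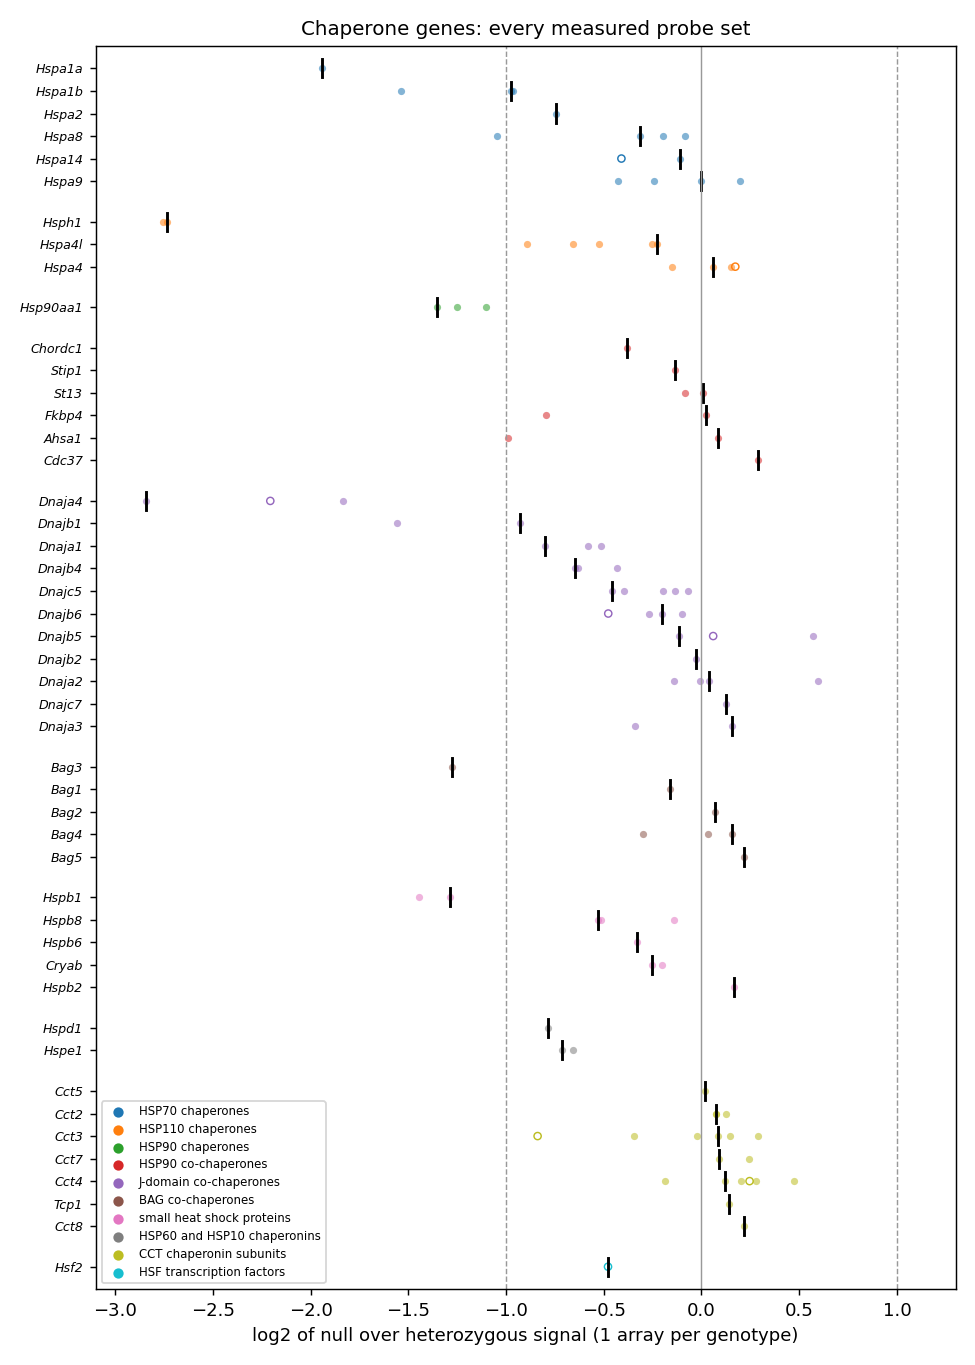
Every measured probe set of the 47 measured members, by role, against its log2 ratio of null over heterozygous signal. Filled dots were above both floors, open dots were at the floor on 1 array, black bars mark each gene's probe set with the highest mean signal and dashed lines mark 2-fold. Low ratios recur over all measured probe sets of Dnaja4, Hsph1, Hsp90aa1 and Hspb1. The brightest probe sets of the CCT subunits lie close to 0, and dimmer ones of Cct3 and Cct4 spread further.

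Among the HSP70 chaperones the stress-inducible pair was lower in the null pool, and the constitutive members differed less. Hspa1a, an inducible cytosolic HSP70, read 1939 units in the null pool and 7451 units in the heterozygous pool, a 3.84-fold lower signal (log2 -1.94). Hspa1b, which encodes nearly the same protein, read 5643 units in the null pool and 11089 units in the heterozygous pool at its brightest probe set (1.97-fold lower). Its other probe sets gave 4088 and 4149.6 units in the null pool, against 11886 and 8108 units in the heterozygous pool (2.91-fold and 1.95-fold lower). All 4 probe sets of the pair were thus lower in the null pool, but the copies are so alike that these probe sets may bind RNA of both, and the split between Hspa1a and Hspa1b is uncertain.

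Hspa8, the constitutive HSP70 of every cell, read 9845 units in the null pool and 12250.3 units in the heterozygous pool (log2 -0.32). Its other probe sets gave log2 ratios of -0.20 and -0.08, and its dimmest gave 328 units in the null pool and 676 units in the heterozygous pool (log2 -1.05). The dimmest probe set of Hspa8 alone passed 2-fold, and the brightest 3 stood within 1.24-fold. Hspa9, the mitochondrial HSP70, read 972 units in both pools. Hspa2, best known from male germ cells, was dim at 52.1 units in the null pool and 87.2 units in the heterozygous pool (log2 -0.74), and Hspa14, a ribosome-associated HSP70, had a ratio of -0.11. The family's median was -0.53, with 6 of 6 members below 0 as deposited, 5 under quantile normalization and 4 when scaled to hybridization controls.

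Hsph1 stood apart from its relatives in the HSP110 family, whose members act as nucleotide exchange factors for HSP70. Hsph1 read 512 units in the null pool and 3415 units in the heterozygous pool, and its other probe set read 339 units in the null pool and 2292 units in the heterozygous pool. The null pool was 6.67-fold and 6.76-fold lower at these probe sets, and the ratio of -2.74 is next to the lowest of all 11893 measured genes. Hspa4, a relative made without stress, read 1069 units in the null pool and 1026 units in the heterozygous pool (log2 0.06), and its other probe sets ranged from -0.15 to 0.17. At the probe set with 0.17 the heterozygous signal was under its floor. Hspa4l, known from the testis, was below 0 at all 5 probe sets, from -0.89 to -0.23, on signals no higher than 179 units in the null pool and 209 units in the heterozygous pool.

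Hsp90aa1, the stress-inducible cytosolic HSP90, was lower in the null pool at each of its 3 measured probe sets. They read 2721, 3059 and 2712 units in the null pool, against 6952, 6571 and 6453 units in the heterozygous pool. These are 2.55-fold, 2.15-fold and 2.38-fold lower signals, and 2 further probe sets were at the floor on both arrays. Scaling to hybridization controls, which also makes another probe set the brightest, puts Hsp90aa1 short of 2-fold at -0.88.

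The co-chaperones that work with HSP90 did not show such a difference, and none of the 6 measured was 1.5-fold apart at its brightest probe set. Cdc37, which loads protein kinases onto HSP90, read 2319 units in the null pool and 1897 units in the heterozygous pool, and its log2 ratio of 0.29 was the highest of all members. St13, which binds HSP70 on its way to HSP90, read 1343 units in the null pool and 1338 units in the heterozygous pool. Ahsa1, the activator of the HSP90 ATPase, Fkbp4, an immunophilin of steroid receptor complexes, and Stip1, which bridges HSP70 and HSP90, had ratios of 0.08, 0.02 and -0.14. Chordc1, an HSP90 partner, was the lowest at -0.38. Dim further probe sets of Ahsa1 (-0.99) and Fkbp4 (-0.79) were lower than the bright ones, so the median of 0.01 for these co-chaperones becomes -0.26 when all probe sets of a gene are averaged.

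**Figure D2:**
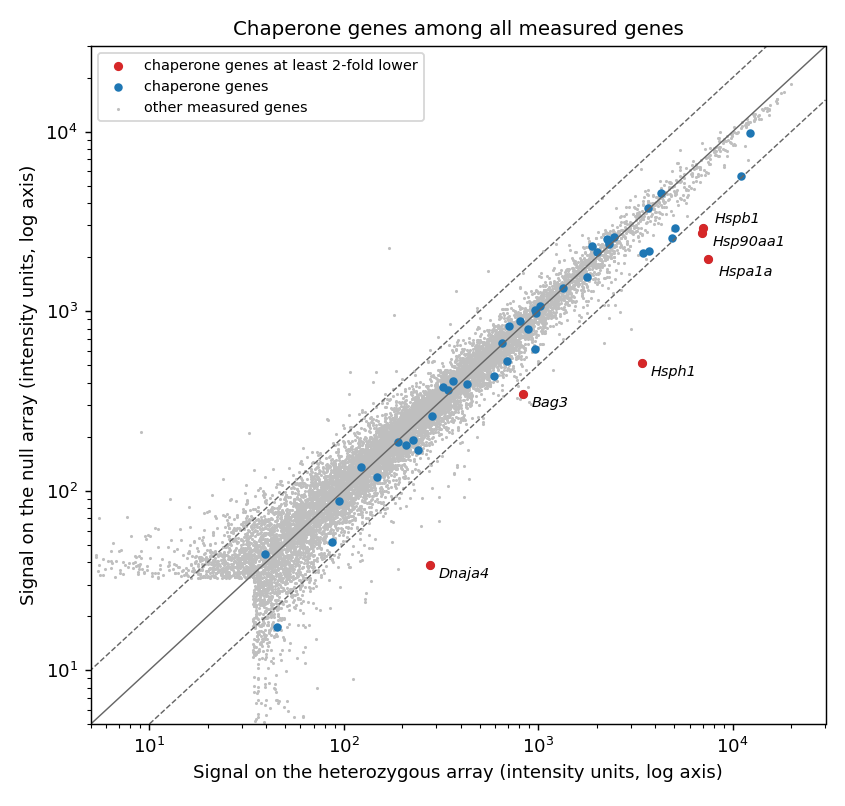
Signal of all measured genes at the probe set with the highest mean signal, heterozygous pool across and null pool up, both on log axes in intensity units. Gray dots are all genes, coloured dots the 47 members, the solid diagonal marks equal signals and dashed lines mark 2-fold; genes under 5 units on an array fall outside the axes. Dnaja4, Hsph1, Hspa1a, Hsp90aa1, Hspb1 and Bag3 lie below the lower dashed line, and no member lies above the upper one. Signals are drawn without the floors, so Hsf2, at 17.5 units in the null pool and 45.3 units in the heterozygous pool, also falls below the dashed line although its null signal is under the floor.

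J-domain proteins bring substrates to HSP70 and start its ATP hydrolysis, and their ratios ranged from -2.84 to 0.16. Dnaja4 had the lowest log2 ratio of all 11893 measured genes. It read 38.6 units in the null pool and 277 units in the heterozygous pool (7.18-fold lower), and 45.2 units in the null pool and 161 units in the heterozygous pool at another probe set (3.57-fold lower). At the last one the null pool, at 29.4 units, was below its floor and the heterozygous pool read 150.1 units, so the null signal was at least 4.62-fold lower. The null signals of Dnaja4 lay close to the floor at every probe set, and with a floor at each array's 75th percentile its ratio becomes -0.89, short of 2-fold.

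Dnajb1, the main inducible partner of HSP70, read 2552 units in the null pool and 4849 units in the heterozygous pool (1.90-fold lower) at its brightest probe set. The other read 1508 units in the null pool and 4435 units in the heterozygous pool (2.94-fold lower). Dnajb1 is therefore below 2-fold by the probe set rule used here and above it by the other probe set. Dnaja1, a farnesylated partner of HSP70, read 2911 units in the null pool and 5071 units in the heterozygous pool (log2 -0.80), with -0.51 and -0.58 at its other probe sets. Dnajb4 read 615 units in the null pool and 964 units in the heterozygous pool (log2 -0.65), with -0.63 and -0.43 elsewhere. For each of these genes all probe sets pointed the same way.

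The other J-domain members differed little. Dnajc5, which acts at synaptic and secretory vesicles, was below 0 at all 5 probe sets (-0.46 to -0.07), and Dnajb6, which suppresses aggregation, at all 4 (-0.48 to -0.10). The -0.48 of Dnajb6 is a bound, since its null signal there, 22.6 units, was under the floor. Dnajb2, Dnajb5, Dnaja2, Dnajc7 and the mitochondrial Dnaja3 had ratios from -0.12 to 0.16 at their brightest probe sets, with both signs among the further ones, up to 0.60 for Dnaja2. As deposited, 8 of the 11 J-domain members were below 0 and their median was -0.20. The sign of that median, like that of all members, turns when the arrays are scaled to the hybridization control probe sets (0.10 for each), which moves the median of all measured genes to 0.25.

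**Figure D3:**
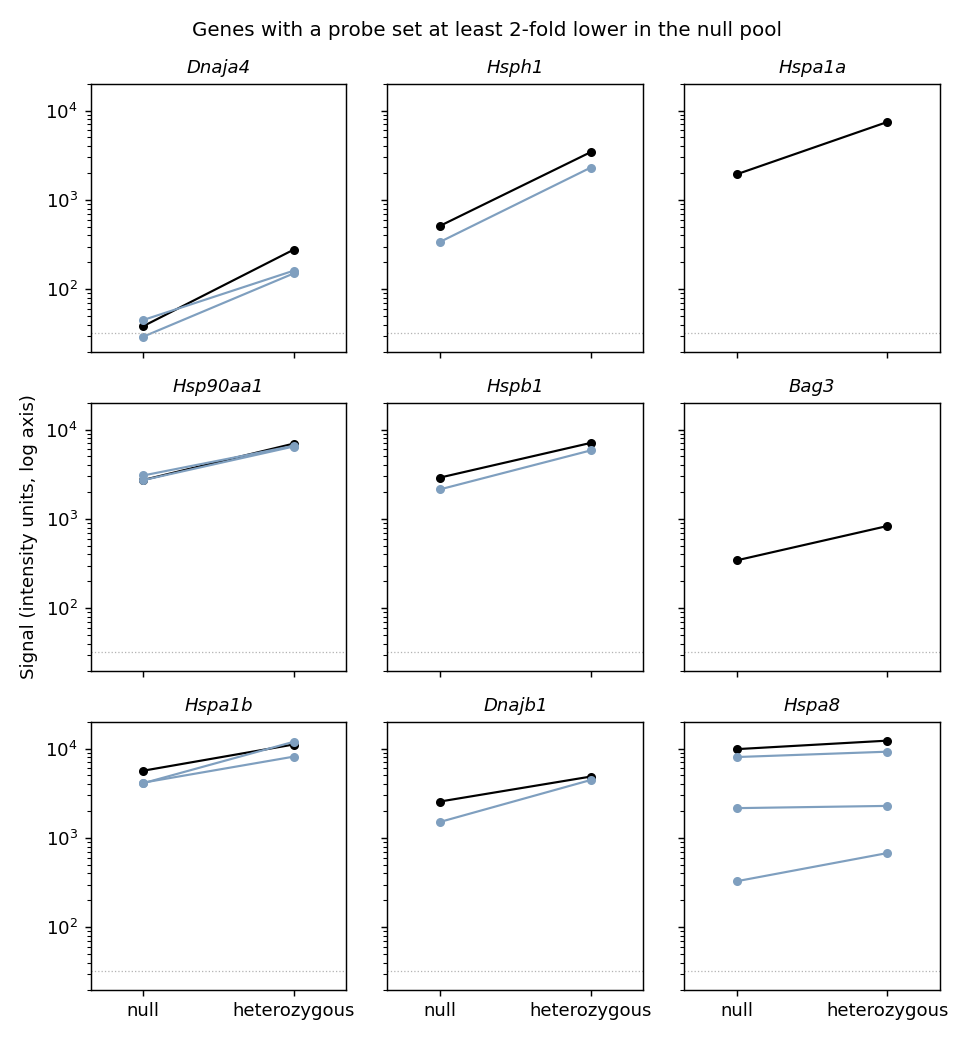
Signals of the 9 members with a measured probe set lower by 2-fold or more in the null pool, null array at the left and heterozygous array at the right of each panel, in intensity units on a log axis. Each line is 1 probe set, black for the one with the highest mean signal and blue for the others, and the dotted line is the floor of the null array. Probe sets of 1 gene run nearly parallel in Hsph1, Hsp90aa1 and Hspb1, and those of Hspa8 and Dnajb1 differ in slope.

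BAG proteins release nucleotide and substrate from HSP70. Bag3, an inducible member that links HSP70 to small heat shock proteins and to autophagy, read 344 units in the null pool and 832 units in the heterozygous pool (2.42-fold lower, log2 -1.27) at its only probe set. The other 4 did not share this: Bag1 read 793 units in the null pool and 888 units in the heterozygous pool (log2 -0.16), and Bag2, Bag4 and Bag5 had ratios of 0.07, 0.15 and 0.22.

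Small heat shock proteins hold unfolded proteins without using ATP. Hspb1 read 2900.4 units in the null pool and 7075 units in the heterozygous pool (2.44-fold lower), and its other probe set read 2140.2 units in the null pool and 5829.5 units in the heterozygous pool (2.72-fold lower). Hspb8, the partner of Bag3, read 168 units in the null pool and 243 units in the heterozygous pool (log2 -0.53), with -0.51 and -0.14 at its other probe sets. Cryab, a lens and muscle chaperone that myoepithelium also makes, read 192 units in the null pool and 228 units in the heterozygous pool (log2 -0.25). Hspb6 and Hspb2, both known from muscle, had ratios of -0.33 and 0.17 on dim signals of at most 119 units in the null pool and 149 units in the heterozygous pool. Hspb1 was thus the one small heat shock gene of the 5 past 2-fold.

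The mitochondrial and cytosolic chaperonins lay on opposite sides of 0. Hspd1 and Hspe1 encode HSP60 and HSP10, the barrel and lid of the mitochondrial chaperonin. Hspd1 read 2149 units in the null pool and 3709 units in the heterozygous pool (1.73-fold lower). Hspe1 read 2112 units in the null pool and 3467 units in the heterozygous pool (1.64-fold lower), and 489 units in the null pool and 770.4 units in the heterozygous pool at its other probe set (1.58-fold lower). The genes are neighbours, and no other member pair but Hspa1a with Hspa1b and Cryab with Hspb2 is adjacent among protein-coding genes in the RefSeq order.

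The CCT chaperonin folds actin and tubulin in the cytosol. Its 7 listed subunits had ratios above 0 at their brightest probe sets, from 0.02 to 0.22. Averaging probe sets turns Cct3 to -0.12. Leaving out those with the suffix s, x or a, where a gene has others, turns it to -0.84. That value rests on a dim probe set, at 25.7 units in the null pool, under its floor, and 58.2 units in the heterozygous pool. Cct2 read 4531 units in the null pool and 4299 units in the heterozygous pool (log2 0.08), and Cct5 read 3729.6 units in the null pool and 3683 units in the heterozygous pool (log2 0.02). The median of 0.09 stood close to the 0.03 of all measured genes, and the highest, Cct8 at 0.22, was close to the robust SD of a single probe set (0.21). Further probe sets of Cct3 and Cct4 had both signs, from -0.84 to 0.48.

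Of the heat shock factors, Hsf2, which binds the same elements as heat shock factor 1, was measured only through the heterozygous array, at 45.3 units there and 17.5 units in the null pool, below its floor. With the null signal set to its floor, the null pool was at least 1.39-fold lower (log2 -0.48), and this size moves with the floor.

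Over all members 109 of 123 probe sets were measured, and 15 of these (13.8%) in 9 genes were lower by 2-fold or more in the null pool, beside 1.08% of all measured probe sets with 1 gene symbol. None was at least 2-fold higher. Of 28 members with several probe sets above both floors, 17 had them all on 1 side of 0, 15 of these below it and 2 above it. In 4 members, Dnaja4, Hsph1, Hsp90aa1 and Hspb1, every such probe set was at least 2-fold lower. The median range between probe sets of a member was 0.42 on the log2 scale. Some of the 15 differed little, such as Cryab (-0.25 to -0.20). The share of all genes whose probe sets lie on 1 side of 0 is not given here, so nothing is read from these counts.

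The lower members were not limited to dim genes. Among the 1430 measured genes that reached 1000 units on an array, 13 were lower by 2-fold or more in the null pool, and 4 of these were Hsph1, Hspa1a, Hsp90aa1 and Hspb1. Of the members, 22 reached 1000 units in all. The measured genes were also divided by mean signal into 20 bins. In the brightest bin of 595 genes, which had a robust SD of 0.19, no other gene had a ratio as low as that of Hspa1a. That SD is a spread between genes and not between animals, and the ratio of Hspa1a was known when the list was chosen, so the rank is a description.

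The promoters were searched for the heat shock element, the repeat to which the heat shock factors bind. The rule that chose the members did not use sequence, but it took families in which, as said above, many genes carry such elements. A larger share of members with an element than of all genes is therefore no separate support. RefSeq windows of 300 bases (250 before and 50 after an annotated start, build GRCm38.p6) were scanned on both strands for a 3-unit form, GAANNTTCNNGAA or its reverse complement TTCNNGAANNTTC, and for a 2-unit form, GAANNTTC or TTCNNGAA. Each 3-unit match holds overlapping 2-unit matches. The sequences below are of some lower members with a match before the start, so that the elements can be seen in place. They leave out Bag3, whose 1 match lies after the start at 43 to 50, and Dnajb1, whose window holds none. Dnaja1 (log2 -0.80), Dnajb4 (log2 -0.65) and Hspb6 (log2 -0.33) also have a match before the start but are not shown. Their matches lie at -124 to -117 in Dnaja1, -14 to -7 in Dnajb4 and -120 to -113 in Hspb6. Capitals mark the 2-unit matches and positions count from the start, with -1 the base before it.
Hspa1a: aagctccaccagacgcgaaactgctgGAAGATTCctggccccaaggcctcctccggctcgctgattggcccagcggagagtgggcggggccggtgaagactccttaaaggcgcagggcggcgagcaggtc
Hspa1b: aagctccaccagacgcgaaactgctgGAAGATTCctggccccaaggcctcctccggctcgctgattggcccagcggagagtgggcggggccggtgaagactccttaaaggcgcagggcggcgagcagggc
Hspb1: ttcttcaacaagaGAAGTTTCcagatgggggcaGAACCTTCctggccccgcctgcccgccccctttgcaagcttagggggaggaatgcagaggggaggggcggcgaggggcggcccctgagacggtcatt
Dnaja4: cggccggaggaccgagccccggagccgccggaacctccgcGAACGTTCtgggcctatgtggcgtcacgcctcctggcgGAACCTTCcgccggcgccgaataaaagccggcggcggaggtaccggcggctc
Hsph1: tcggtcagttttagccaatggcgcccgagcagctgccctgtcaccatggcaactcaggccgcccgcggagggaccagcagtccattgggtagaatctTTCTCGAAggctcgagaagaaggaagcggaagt
They run 5′ to 3′ from -130 to -1 on the strand of the gene. Hspa1a lies at chr17:34972157-34972286 and Hspa1b at chr17:34959239-34959368, both on the minus strand. Hspb1 lies at chr5:135887789-135887918 and Dnaja4 at chr9:54699429-54699558, both on the plus strand, and Hsph1 at chr5:149636337-149636466 on the minus strand, counted from the more upstream of its starts. The windows of Hspa1a and Hspa1b are the same at 296 of 300 bases, and each holds 1 match at -104 to -97. Hspb1 and Dnaja4 hold 2 matches each. Hsph1 holds 1 match at -33 to -26 and a 3-unit match downstream, at 37 to 49.

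Hspd1 and Hspe1 start 216 bases apart on opposite strands, and the bases between hold overlapping 3-unit matches that both windows share. They are shown with the element of Dnajb6, which also has 3 units beside a log2 ratio of only -0.20.
Hspe1: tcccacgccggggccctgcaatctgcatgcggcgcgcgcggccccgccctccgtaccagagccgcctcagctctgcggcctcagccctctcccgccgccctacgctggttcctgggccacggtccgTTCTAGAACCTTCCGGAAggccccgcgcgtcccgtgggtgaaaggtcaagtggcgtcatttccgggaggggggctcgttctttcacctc
Dnajb6: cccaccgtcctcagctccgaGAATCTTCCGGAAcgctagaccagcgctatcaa
The Hspe1 stretch is chr1:55087933-55088147 on the plus strand (-215 to -1), with the matches spanning -89 to -72. The Dnajb6 stretch is chr5:29735832-29735884 on the plus strand (-66 to -14).

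Of the 47 measured members 38 had a window, and 18 of these (47.4%) held a 2-unit match, beside 17.0% of the 27025 genes with a window and 14.0% of measured genes with one. The 18 had a median log2 ratio of -0.68, and in the null pool 10 of them were at least 1.5-fold lower and 5 at least 2-fold lower. The 20 members without a match had a median of 0.05, and 2 of them, Dnajb1 and Hspa2, were at least 1.5-fold lower and 0 at least 2-fold lower. A 3-unit match was held by 5 members (13.2%), beside 0.662% of genes, and Hsph1, Hspd1, Hspe1, Chordc1 and Dnajb6 ranged from -2.74 to -0.20. Of the members with a 2-unit match, Cdc37 (0.29), Cct2 (0.08), Fkbp4 (0.02) and Cct5 (0.02) lay above 0 and the others below it. The 1328 measured genes outside the list with a 2-unit match had a median of 0.03, and 13 of them were at least 2-fold lower. The 51 outside the list with a 3-unit match had a median of 0.01, and 0 of them were at least 2-fold lower. Among all measured genes with a window, 0.923% of those without a 2-unit match were at least 2-fold lower. Of those without a 3-unit match 0.976% were, so nothing is read from these counts. A match is a run of letters and not a shown binding site. Hspd1 and Hspe1 share their matches, and Hspa1a and Hspa1b have nearly the same window, so these members are not separate cases in the counts and medians. The split also uses ratios that were known when the members were chosen, so nothing is read from it. No window was used for Hsp90aa1, Hspa8, Dnajc5, Cryab, Hspa9, St13, Cct4, Bag4 and Hspb2.

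**Figure D4:**
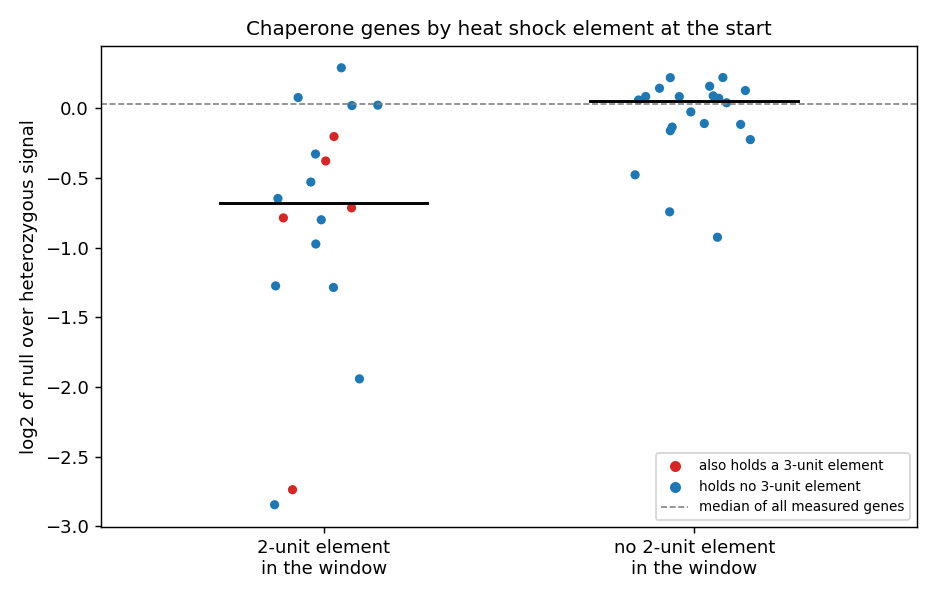
Log2 ratio of null over heterozygous signal for the 38 members with a promoter window, split by whether the window holds a 2-unit heat shock element (18 genes) or none (20 genes). Red dots also hold the 3-unit form, black bars are medians, the dashed line is the median of all measured genes and points are spread sideways for visibility. Members with an element reach from -2.84 to 0.29, and those without one from -0.93 to 0.22.

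Related genes outside the 50 were listed for comparison, and a difference between them and the members was not tested. Of 82 such genes in 4 groups 74 were measured, 2 were lower by 2-fold or more in the null pool, 0 were higher and the median was -0.04. The 31 measured of 36 other cytosolic and nuclear chaperones had a median of -0.00 and 0 past 2-fold in either direction. The brightest of them, Naca and Cct6a, had ratios of -0.04 and 0.14. The 11 measured mitochondrial chaperones and proteases had a median of 0.13 and 0 past 2-fold, and the brightest of them, Timm44 and Trap1, had ratios of -0.07 and 0.14. Hspd1 and Hspe1, from the same compartment, were lower than any of these 11, whose ratios spanned -0.23 to 0.31. Hspa9 (-0.00029) and Dnaja3 (0.16), the other mitochondrial members, lay within that span.

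In the endoplasmic reticulum list 1 of 17 genes passed 2-fold. Dnajb9, a J-domain protein of that compartment induced by unfolded proteins, read 1079 units in the null pool and 2276 units in the heterozygous pool (2.11-fold lower), while the list's median was -0.13 and Hspa5, its HSP70, had a ratio of -0.24. Among 15 measured stress-induced genes outside the chaperone families 13 were below 0 as deposited, beside 46.0% of all measured genes. Their median was -0.14, and some of the 13 were near 0, such as Gadd45a (-0.01) and Clu (-0.04). When scaled to hybridization controls 5 of the 15 were below 0, beside 21.1% of all measured genes. Zfand2a, an arsenite- and heat-inducible partner of the proteasome, read 468 units in the null pool and 1186 units in the heterozygous pool (2.53-fold lower), and its other probe sets gave -1.50, -1.15 and -0.64. Hmox1, the inducible heme oxygenase, was named after its values were seen, at 699 units in the null pool and 1334 units in the heterozygous pool (1.91-fold lower).

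Immediate early genes answer within minutes to stress and to the handling of tissue, and their list is given beside these values. All 19 of its genes were measured, 6 were below 0 and 13 above it, the median was 0.14 and 0 passed 2-fold. Their summed signal was 97604.5 units in the null pool and 84108 units in the heterozygous pool. Ratios in the list spanned -0.86 (Egr2) to 0.88 (Nr4a1). Of its brightest genes, Fos read 9237 units in the null pool and 8393 units in the heterozygous pool (log2 0.14), and Nfkbia had a ratio of -0.06. No difference between this list and the members was tested.

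Markers of several cell types differed between the pools. The 9 luminal and secretory markers had a median of -0.11 and a summed signal of 79025 units in the null pool and 83654 units in the heterozygous pool, and the milk protein genes Csn3 (16461 units in the null pool and 17785 units in the heterozygous pool) and Wap (13117 units in the null pool and 15403 units in the heterozygous pool) were bright in both pools. The 8 myoepithelial markers had a median of -0.06 and sums of 20589 units in the null pool and 22327 units in the heterozygous pool. All 8 fibroblast markers were above 0 (median 0.59, sums 11021 units in the null pool and 7277 units in the heterozygous pool), as were all 8 of endothelium (median 0.40, sums 2294 units in the null pool and 1606 units in the heterozygous pool). Past 2-fold in these lists were Col1a2 and Pdgfra of fibroblasts (3.02-fold and 3.05-fold higher) and Vwf of endothelium (2.49-fold higher), though a dimmer probe set of Pdgfra had a log2 ratio of 0.04. The stromal lists were thus higher in the null pool, and the epithelial ones were close to equal by their medians only. Of the luminal markers 6 were below 0 and 3 above it, and of the myoepithelial ones 5 were below 0 and 3 above it. Single markers differed more, with Krt14 at -0.69, Lalba at -0.52, Krt5 at -0.47 and Trp63 at 0.53. Scaling to hybridization controls turns the luminal, myoepithelial, endoplasmic reticulum and stress-induced medians to 0.11, 0.16, 0.09 and 0.08.

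Among the blood cells, 5 of 7 B and plasma cell markers were measured, and these 5 were above 0. The markers with a probe set, those under both floors included, summed to 2908 units in the null pool and 379.9 units in the heterozygous pool. Ighm, the heavy chain of immunoglobulin M, read 2252 units in the null pool and 172 units in the heterozygous pool at the brightest of its 6 probe sets. The next 2 had log2 ratios of 3.19 and 3.81, and the dimmer 3 had ratios from 0.28 to 0.70. Jchain had a ratio of 2.09, and Mzb1 was at least 2.16-fold higher in the null pool, where the heterozygous signal was under its floor. Myeloid markers had sums of 8285 units in the null pool and 7497 units in the heterozygous pool, with 6 of 8 above 0. Only 2 of 7 T cell markers, 4 of 7 adipocyte markers and 3 of 7 skeletal muscle markers were above a floor. Summed likewise over every listed marker with a probe set, these lists gave 185, 6264 and 416 units in the null pool and 111, 6992 and 388 units in the heterozygous pool. Adipoq of adipocytes, under the floor in the null pool, was at least 2.05-fold lower there. The part of these cell types in the members' values was not tested.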

How the data were processed

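RNA of mammary epithelial cells was measured on 2 arrays, 1 per genotype, each of RNA pooled from 5 mice. The deposited values are linear signal intensities per probe set, which the authors made with MAS5 (Affymetrix Expression Console, version 1) according to the submitters' processing notes. The genome build was not given in the sources used here. Detection calls were not analysed here.

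Probe sets were named through the platform's probe table. Of 45037 non-control probe sets, 34945 had 1 gene symbol, 932 had several and were not used, and 9160 were not listed. Symbols were updated by Entrez ID through RefSeq's gene table, where 34741 probe sets matched. Each array was floored at its median over non-control probe sets before log2 ratios of null over heterozygous were taken, and the brightest probe set by mean signal stood for its gene. The limit of 2-fold is a rule of size, since 1 array per genotype allows no test. That number limits the precision of every value. Signals of different probe sets are not comparable as levels.

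The members and the other gene lists were chosen with earlier results of these data known. Named in full are members at least 2-fold apart, the 4 just inside and just outside that limit and the brightest 2 of each role, of the other lists the genes at least 2-fold apart, and where there were none in a pathway list or the immediate early and luminal lists, the brightest 2. Other members named were picked to account for every one. Promoter windows are RefSeq's, matched by symbol. Alternatives changed the floor, the scaling, the probe set per gene, the symbols and the fold limit. The calculations, in Python 3.11.15 with numpy 2.4.6, pandas 2.3.3 and matplotlib 3.10.9, were tested on simulated data.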

Additional observations from a re-analysis of the deposited data

How the results depend on the processing

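The 6 lower members and 0 higher ones came out the same under quantile normalization, running-median centring and the probe table's own symbols. The count was 13 at a 1.5-fold limit and 3 (Dnaja4, Hsph1 and Hspa1a) at a 3-fold limit, with 0 higher at either. A floor at the 25th percentile, or none, gave 7, with Hsf2 added (-1.37, that role's one measured gene), and the 75th percentile gave 5 of 42, where Dnaja4 becomes -0.89 because its null signal is set to the floor and the HSP70 median becomes -0.32. Averaging all probe sets gave 8, adding Dnajb1 (-1.24) and Hspa1b (-1.16), with medians of -0.51 for HSP110 and -0.26 for the HSP90 co-chaperones. Leaving out probe sets with the suffix s, x or a, where a gene has others, gave 8, adding Hspa1b (-1.54) and Hspa8 (-1.05). The HSP70 median was then -0.89. Hsph1 and Hspb1 have no others, so their values there still rest on such probe sets. Hsp90aa1 was -1.04 under quantile normalization, where another of its probe sets is the brightest. Scaling to the 18 hybridization controls, whose median log2 ratio was -0.22, moved the median of all measured genes to 0.25, so that 59 were at least 2-fold lower and 339 higher (123 and 133 as deposited). That scaling moves every ratio by the same amount, except where another probe set becomes the brightest. The members' median minus that of all genes, -0.15 there and -0.16 as deposited, could therefore hardly change, and nothing is read from it. In absolute terms their median was 0.10, 5 stayed at least 2-fold lower, Hsp90aa1 was -0.88 (again with another probe set), and the medians were -0.31 for HSP70, -0.0062 for HSP110, 0.23 for the HSP90 co-chaperones, 0.10 for J-domain proteins, 0.29 for BAG proteins, -0.11 for small heat shock proteins, -0.53 for HSP60 and HSP10, 0.31 for CCT and -0.26 for Hsf2, whose null signal is under the floor. No member's call at 2-fold changed sign. No paired analysis was possible because each genotype has 1 array, and for the same reason no replicate could be left out. Genes near the floors, such as Dnaja4, Hspa2 and Hsf2, have the least certain sizes.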
